A study of Mus musculus with 45 samples.

Results

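The 200 rows described here are gene-level features that rose in libraries of hepatic stellate cells (HSCs) sorted from diseased mice and fell in those of HSCs put in culture. They are 200 of the 23999 rows of 3 exon count tables, and they were chosen by their measured values. For each row, the count was divided by the library total and multiplied by 1000000 to give the CPM, and the level of a group was log2(mean CPM + 1). A row was kept when its level was 3 or more in any group, which held for 13336 rows, and when its level on day 12 of culture was at least 0.5 below its level at the start, which left 3132 rows. The 200 rows with the highest value of the smallest of 3 changes were taken, namely the rise at 24 weeks of Western diet, the rise at 8 weeks of CCl4 and the fall on day 12 of culture. The direction of these changes was therefore fixed by the choice, and they are given below as descriptions without a test.

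All cells came from C57BL6/J mice and were sorted by flow cytometry for the autofluorescence of their retinoids. Cells without this signal at the time of the sort were not collected. Cultured cells were sorted before they were put in culture, so this limit does not cover a loss of the signal in the dish. In the diet experiment (WD), HSCs were isolated from male mice given Western diet with fructose in the drinking water for 12, 16 or 24 weeks, or chow and plain water (0 weeks), all of the same age at the end, with 4 libraries per group. In the toxin experiment (CCl4), mice received CCl4, which injures hepatocytes, for 1, 4 or 8 weeks (n = 3, 4 and 3 libraries), or vehicle for 8 weeks (n = 4). In the culture experiment (IVT), sorted HSCs from healthy mice were kept for 2 hours in suspension (d0) or grown in DMEM with serum and antibiotics for 1, 4, 8 or 12 days (d1 to d12), with 3 libraries per group. The cultures were described as technical triplicates but the sequenced RNA as biological replicates, so the spread between IVT libraries may be that of wells and not of mice, whereas WD and CCl4 libraries were taken as separate mice.

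HSCs are the vitamin A-storing pericytes of the liver sinusoid. In chronic liver injury they lose their retinoid droplets and turn into contractile myofibroblasts that secrete collagen, and freshly isolated HSCs undergo a similar change on plastic without any added injury. Culture is therefore widely used as a model of HSC activation. Cells in a dish lack hepatocytes, immune cells and sinusoidal endothelium as neighbors, and genes that rise in the animal need not rise in the dish.

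The question addressed was when these rows changed in each model, and from which level. The rows could not be given gene names. Of 10 genes that every cell uses, 6 were listed with a median below 1 CPM over the libraries, and 45.1% of all rows were below that value. Of 10 genes that mark HSCs or their activation, 4 were listed below it, so the cell type could not be checked against its markers either. Whether the reads of a row came from HSCs or from other liver cells in the preparations was not tested. Rows are given here by their line below the header of the tables. The same line was taken as the same feature in all 3 tables, and the lowest rank correlation of levels between any pair of groups was 0.857 across all rows. Total counts were between 2425443 and 6404105 in WD, between 2318311 and 7576527 in CCl4 and between 3556607 and 7568415 in IVT. A count of 3 in a library corresponded to between 0.396 and 1.29 CPM, and values below this cannot be told from 0 by counting alone.

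In the mouse, the median of the rows went from below to slightly above that of all rows. Their median level was 2.29 in chow-fed mice, 4.49 at 12 weeks, 6.20 at 16 weeks and 5.94 at 24 weeks of WD. In CCl4 it was 2.28 with vehicle, 4.18 after 1 week, 5.30 after 4 weeks and 5.79 after 8 weeks. The medians of all 13336 rows stayed between 5.12 and 5.47 in these 8 groups. In culture, the median level of the chosen rows was 3.28 on d0, 1.45 on d1, 1.18 on d4, 0.974 on d8 and 0.989 on d12, while that of all rows was 4.78 on d0 and 5.27 on d12. The median change was 2.91 at 24 weeks of WD (range 0.903 to 6.98), 2.41 at 8 weeks of CCl4 (range 0.898 to 7.41) and -1.60 on d12 (range -6.70 to -0.897), all on the log2(mean CPM + 1) scale, which understates the change of low rows.

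**Figure D1:**
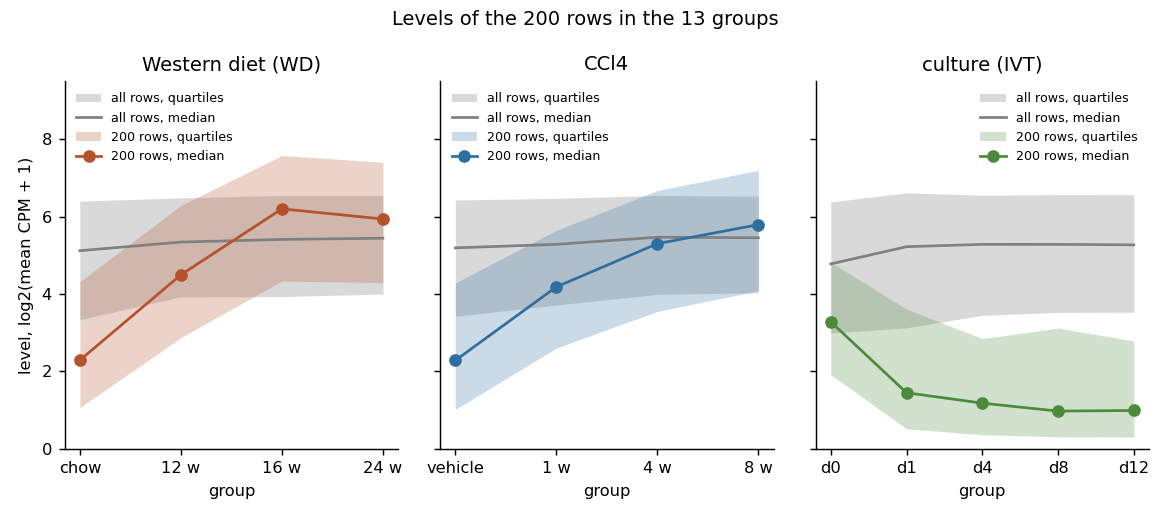
Level, as log2(mean CPM + 1), in the 13 groups of the 3 experiments for the 200 rows (colored line, median; colored band, quartiles) and for all 13336 rows (gray). The median of the chosen rows climbed from 2.29 to 5.94 in WD and from 2.28 to 5.79 in CCl4, and dropped from 3.28 to 0.989 in IVT.

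Rising in the mouse and falling in the dish was the less common course. Among the 2700 rows with a rise of 0.5 or more in both in vivo models, 430 fell by 0.5 or more on d12 of culture, 1543 rose by 0.5 or more and 727 did neither. With a limit of 1 in place of 0.5, 1501 rows rose in vivo, of which 167 fell in culture, 619 rose and 715 did neither. The smallest of the 3 changes was the fall in culture for 129 of the 200 rows, the rise in CCl4 for 39 and the rise in WD for 32. The rise in WD exceeded that in CCl4 for 108 rows, by 1 or more for 34, and the rise in CCl4 exceeded that in WD by 1 or more for 22.

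Together the rows took a small share of each library. In chow-fed mice they held 0.349% ± 0.0371 of the counts (SD, n = 4), at 12 weeks of WD 1.79% ± 0.394, at 16 weeks 3.20% ± 0.622 and at 24 weeks 2.80% ± 0.790 (SD, n = 4 each). With vehicle the share was 0.351% ± 0.0353 (SD, n = 4), after 1 week of CCl4 0.812% ± 0.0623 (SD, n = 3), after 4 weeks 1.64% ± 0.422 (SD, n = 4) and after 8 weeks 2.31% ± 0.197 (SD, n = 3). The rows held 0.878% ± 0.0657 of the counts on d0, 0.476% ± 0.00872 on d1, 0.289% ± 0.00218 on d4, 0.272% ± 0.00273 on d8 and 0.234% ± 0.00188 on d12 (SD, n = 3 each). In bulk libraries, fewer cells that carry a transcript and less of it per cell cannot be told apart.

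Some libraries stood apart within their group. At 16 weeks of WD, replicates C and D held 3.76% and 3.70% of their counts on these rows, against 2.84% and 2.51% in A and B. The same order was seen at 24 weeks, with 3.42% and 3.52% in C and D and 2.27% and 1.97% in A and B. Libraries with the same letter at 16 and 24 weeks deviated from their group means in a similar way over the 200 rows. The r was 0.643 for A, 0.533 for B, 0.747 for C and 0.370 for D (a description over rows, which are not independent). Pairs of different letters were not computed for these groups, so a likeness particular to the letter is not shown. At 12 weeks the order of the shares was the opposite, with 2.26% and 1.98% in A and B and 1.49% and 1.45% in C and D. The median log2(CPM + 1) of the 200 rows did not follow that order at 12 weeks. It was 4.08, 4.70, 4.19 and 4.58 in A to D. After 4 weeks of CCl4, replicate A held 2.27%, and the other libraries held between 1.34% and 1.49%. On d0, replicate B had the lowest CPM of the 3 libraries in 115 of the 200 rows, against 37.6% of all rows. Without it the median change on d12 was -1.69, without replicate A -1.54 and without replicate C -1.62, and no row had its fall turned into a rise.

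**Figure D2:**
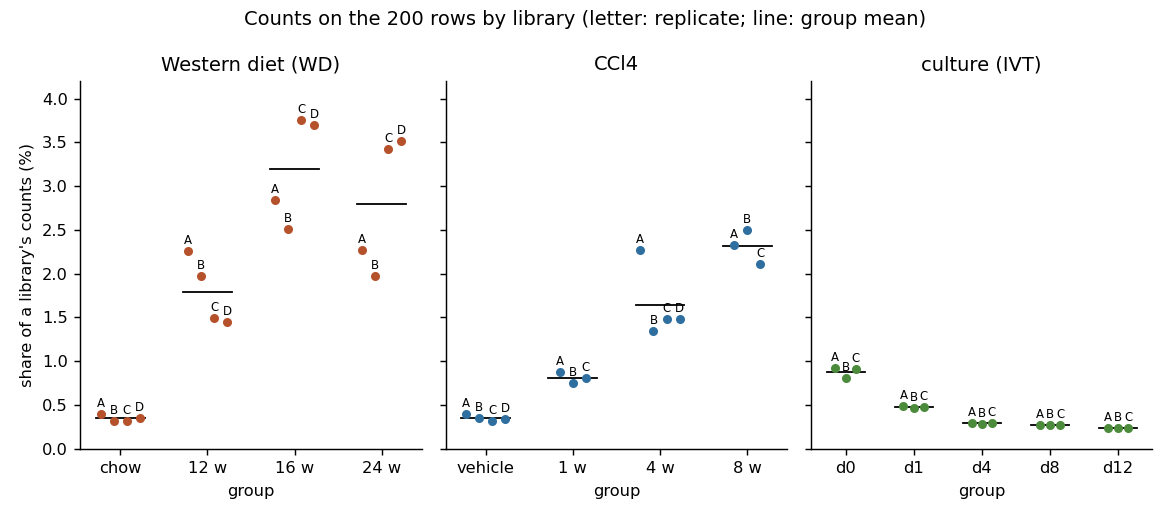
Share of each library's counts (%) that fell on the 200 rows, by group in order of time in WD, CCl4 and IVT. Points are libraries with their replicate letter and lines are group means. Libraries C and D lie above A and B at 16 and 24 weeks of WD, and A lies above the others after 4 weeks of CCl4.

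Most of the rows were at a low level in the healthy mouse, which is in part a product of the choice, since the chow and vehicle levels are the starts of the 2 rises by which the rows were ranked. In chow-fed mice 46 rows had a level below 1, 66 between 1 and 3, 57 between 3 and 5, and 31 a level of 5 or more. Of all 13336 rows, 9.13%, 12.8%, 25.8% and 52.2% fell in these classes. With vehicle the numbers were 50, 68, 48 and 34, and the median difference between vehicle and chow was -0.01, with 10 rows apart by 1 or more. In chow-fed mice 29 rows had a mean count of 3 or less.

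The change of the rows is given here by starting level, as a description that the choice shapes, since a row below 3 in chow-fed mice was kept only if it reached 3 in another group. The median rise in WD was 3.64 for rows below 1 in chow-fed mice, 3.45 for those between 1 and 3, 2.64 for those between 3 and 5 and 1.65 for those at 5 or more. In CCl4 the same classes rose by medians of 2.78, 2.98, 1.84 and 1.62. Their median change on d12 was -1.51, -1.57, -1.55 and -1.70. By the level on d0 the median changes were -0.92, -1.32, -2.3 and -1.84, but a row cannot fall by more than its level on d0 and had to fall by at least 0.897 to be chosen, which leaves the lowest class, of 3 rows, almost no range.

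The starting level differed between the mouse and the dish. On d0 3 rows had a level below 1, 82 lay between 1 and 3, 68 between 3 and 5, and 47 at 5 or more. Of all rows, 9.85%, 15.2%, 28.6% and 46.4% fell in these classes on d0. The choice nearly closed the lowest class, since a row cannot fall by more than its level on d0. The level on d0 exceeded that in chow-fed mice by a median of 0.72, while over all rows it was lower by a median of 0.23 (-0.23). Relative to chow, d0 was higher by 1 or more in 90 rows, which compares with 13.2% of all rows. Relative to vehicle the median difference was 0.90 and 91 rows were higher by 1 or more, against 11.9% of all rows. A row must be detected on d0 to fall by d12, so a level on d0 above that of low controls is in part a product of the choice. The d0 cells were sorted in another experiment than the in vivo controls, and a difference in preparation cannot be told apart from the 2 hours in suspension.

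By this starting level the rows fell into 3 sets, which were formed after their values were seen. In 83 rows d0 exceeded both in vivo controls by 1 or more. Their median level was 1.54 in chow-fed mice, 4.30 on d0 and 1.80 on d12, so the culture course of these rows ended near the in vivo control. In 28 rows d0 was below both controls by 1 or more, with medians of 4.41 in chow-fed mice, 2.34 on d0 and 0.795 on d12. These rows reached 8.52 at 24 weeks of WD and 7.26 at 8 weeks of CCl4, the highest medians of the 3 sets. The other 89 rows had medians of 2.33 in chow-fed mice, 2.19 on d0 and 0.545 on d12.

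Seen from the in vivo controls, the end of culture was a lower level for most rows. On d12 the level was below that of chow-fed mice in 145 rows, by 0.5 or more in 115, and above it by 0.5 or more in 37, which compares with 44.3%, 27.4% and 36.8% of all 13336 rows. It was below both chow and vehicle by 0.5 or more in 101 rows, against 24.2% of all rows. The rows were chosen for a fall by d12, so a low level on that day is in part a product of the choice. The depth limits these values. On d12, 100 rows had a level below 1, 73 had a mean count of 3 or less and 11 were at 0 in all 3 libraries, and a fall beyond that was not detectable.

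**Figure D3:**
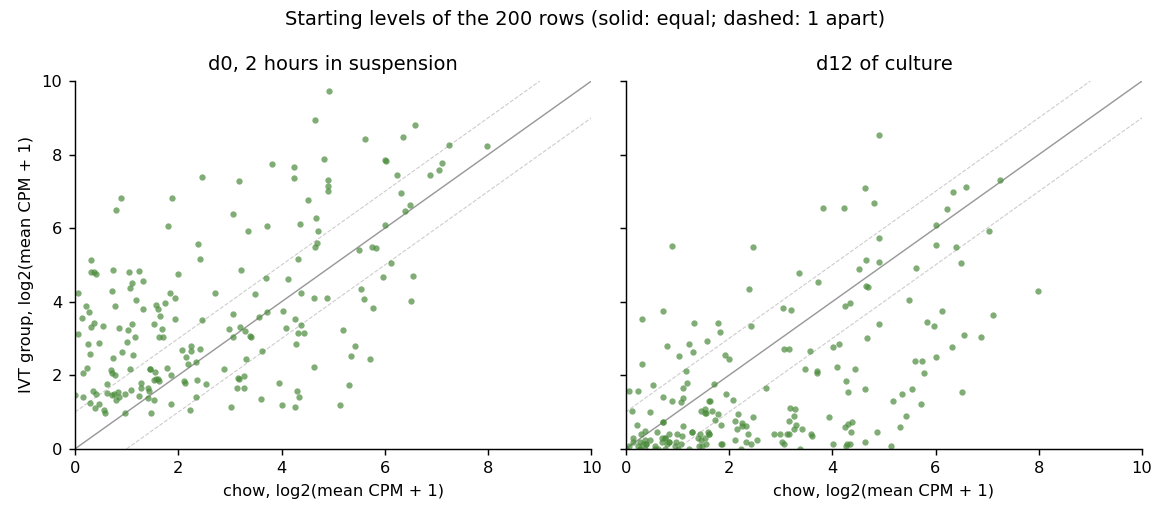
Level, as log2(mean CPM + 1), of each of the 200 rows (points) in chow-fed mice (x) and on d0 or d12 of IVT (y). The solid line marks equal levels and the dashed lines a difference of 1. On d0, 90 rows lie above the upper dashed line, and on d12 100 rows lie below a level of 1.

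The highest-ranked row, row 17808, had an almost absent control level, a strong rise in both models and a loss in culture that came mostly after d1. Its CPM in chow-fed mice was 2.96, 2.59, 3.58 and 1.46 (replicates A to D), and 18.5, 59.4, 46.5 and 46.3 at 12 weeks, 146, 96.3, 134 and 222 at 16 weeks and 121, 121, 139 and 121 at 24 weeks of WD. In CCl4 it was 1.53, 1.43, 3.59 and 0 with vehicle, 67.3, 57.1 and 80.0 after 1 week, 181, 98.0, 137 and 97.8 after 4 weeks and 210, 331 and 206 after 8 weeks. Each treated library lay above each control library of its experiment, which the choice by the last groups favors. In culture the CPM was 125, 67.5 and 145 on d0, 78.4, 60.0 and 64.9 on d1, and 0, 0.145 and 0.293 on d4, and at most 0.297 in any later library. The row thus kept most of its level on d1 and was near the limit of detection from d4 on.

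Row 20582 and row 23901 lost most of their level on d1. For row 20582 the CPM was 0, 0.162, 0.766 and 0 in chow-fed mice and 20.0, 25, 56.4 and 79.5 at 24 weeks of WD. The chow values were 4 reads in all, 3 of them in replicate C. It was 0.436, 0, 0.422 and 0 with vehicle and 87.0, 44.4 and 49.2 after 8 weeks of CCl4, with 4 reads in all with vehicle. In culture it was 35.4, 11.7 and 33.2 on d0 and 0.609, 0 and 0.754 on d1. Row 23901 went from 0.555, 0.162, 0.255 and 0.182 in chow-fed mice to 47.6, 45.7, 127 and 117 at 24 weeks. Its d0 libraries were close together, at 27.4, 26.8 and 26.4 CPM, and its d1 libraries were at 0.913, 1.98 and 1.51. In both rows the d0 cells stood well above the chow and vehicle cells. The start and end groups of each model did not overlap, but both rows were ranked high by the changes between these groups.

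Row 21 had the largest rise in WD. Over the 4 chow-fed and the 4 vehicle-treated libraries it was detected with 1 read each, and its CPM was 69.4, 48.0, 203 and 202 at 24 weeks of WD and 84.3, 50.0 and 48.5 after 8 weeks of CCl4. On d0 it was 25.4, 2.60 and 25, with replicate B far below the others, and from d1 on no library exceeded 0.283. Row 22586 rose to 30.6, 33.6, 117 and 190 at 24 weeks of WD and to 182, 95.8 and 119 after 8 weeks of CCl4, from at most 1.28 in any control library. Its d0 libraries were at 18.6, 3.72 and 19.1, again with B the lowest. In these rows the WD libraries C and D exceeded A and B at both 16 and 24 weeks.

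In the remaining 3 rows of the first 8 most of the fall was present on d1, and the rise in CCl4 came at different times. The share of the 8-week change after 1 week of CCl4 was 0.787 for row 2256, 0.312 for row 9399 and 0.161 for row 10258. Row 2256 went from 1.30, 1.30, 0.766 and 0.729 in chow-fed mice to 120, 110, 333 and 324 at 24 weeks of WD, and from 13.6, 4.46 and 7.03 on d0 to 0 in all 3 libraries on d12. Row 9399 went from 9.41, 7.63 and 12.1 on d0 to 0.277, 0 and 0.265, and row 10258 from 33.4, 7.63 and 18.0 to 1.38, 1.71 and 1.19, after lower values of 0.744, 0.15 and 0.793 on d8. These 8 rows were chosen for their values.

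**Figure D4:**
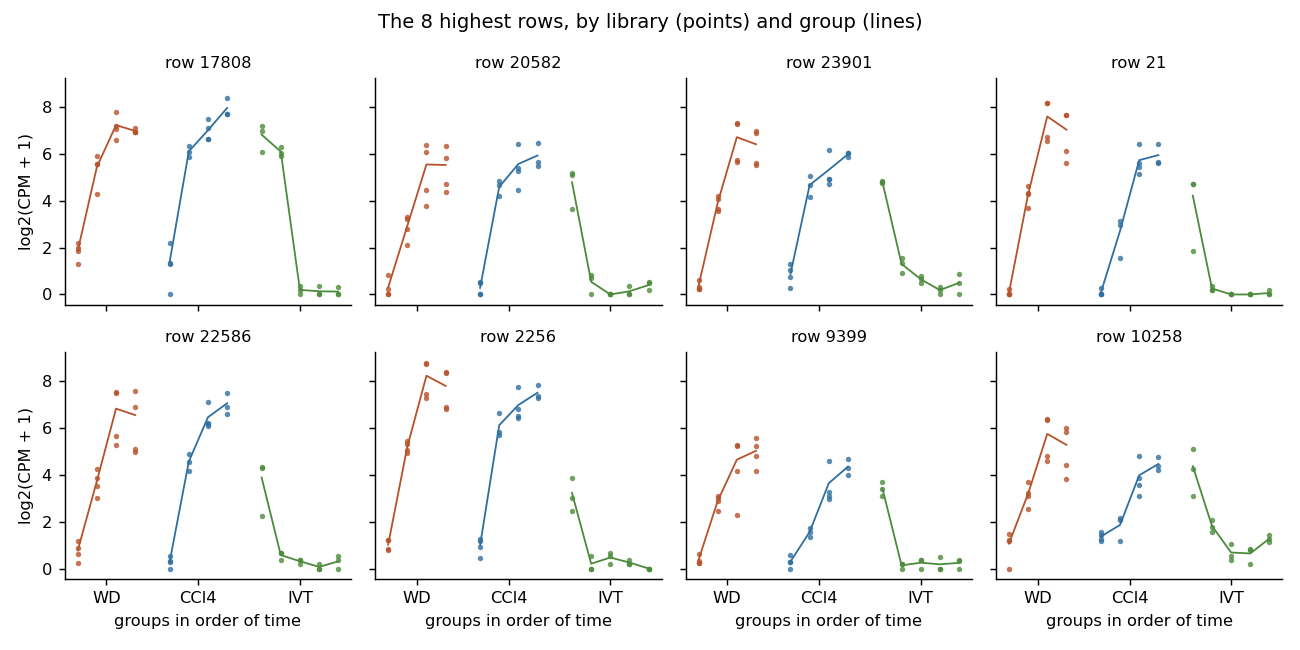
CPM on a log scale, log2(CPM + 1), of the 8 highest-ranked rows in each library (points) and the group levels (lines), in order of time in WD, CCl4 and IVT. In culture most of the drop is present on d1 in each row but row 17808, in which most of it comes between d1 and d4.

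Other rows that were at the ends of single changes had other shapes. Row 13385 reached 594, 532, 1260 and 1210 CPM at 24 weeks of WD and 891, 812 and 817 after 8 weeks of CCl4, from at most 11.7 in any control library. Its d0 libraries were at 2.20, 0.372 and 3.94, so its fall in culture began near the detection limit. Row 14180 was alike, with 168, 143, 357 and 339 CPM at 24 weeks and 3.40, 0.930 and 3.09 on d0. Row 3252, with the largest rise in CCl4, went from at most 0.422 CPM with vehicle to 172, 248 and 142 after 8 weeks. On d0 it was at 0.801, 0.372 and 1.69 CPM, which were 4, 2 and 6 reads, so its fall in culture rested on few reads. The opposite was row 22878, with 179, 151 and 135 CPM on d0 against 5.55, 13, 6.64 and 6.74 in chow-fed mice. It fell to 5.68, 5.55 and 5.30 on d12, and rose to 15.3, 34.2, 17.1 and 16.7 at 24 weeks of WD and 58.9, 91.0 and 97.7 after 8 weeks of CCl4. Row 7546 was at 42.8 and 34.0 CPM in d0 replicates A and C and at 0.930 in B, so its fall rested on A and C.

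Among rows that began at a level of 5 or more in chow-fed mice, row 6955 ranked highest. Its CPM was 60.3, 47.8, 42.6 and 59.2 in chow-fed mice and 573, 367, 318 and 262 at 12 weeks of WD, and it stayed between 355 and 641 in the later WD libraries. In culture it first rose, from 57.5, 30.3 and 43.3 on d0 to 81.9, 81.7 and 90.1 on d1, and then fell to 15.1, 14.5 and 17.7 on d4 and 4.99, 3.28 and 4.51 on d12. Row 10888, the highest-ranked of those between 3 and 5, went from 20.5, 23.2, 24.5 and 26.6 in chow-fed mice to 177, 164, 345 and 289 at 24 weeks, and from 17, 9.49 and 22.2 on d0 to 3.05, 1.85 and 1.33 on d12. For these rows chow and d0 cells had similar levels, and the mouse and the dish moved apart from there.

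The rise in WD took place in the first 16 weeks. The share of the 24-week change that was present at an earlier time had a median of 0.503 at 12 weeks (quartiles 0.319 and 0.735) and of 1.06 at 16 weeks (quartiles 1.02 and 1.11). A share of 0.5 was first reached at 12 weeks by 101 rows, at 16 weeks by 97 and at 24 weeks by 2. The highest level of the course was at 16 weeks for 138 rows, at 24 weeks for 33 and at 12 weeks for 29, and 28 rows passed their 24-week level by 0.5 or more at an earlier time. At 12 weeks 15 rows were below chow, 1 of them by 0.5 or more. With replicate B of 12 weeks, the library with the lowest depth, or any other 12-week library left out, the median share was between 0.475 and 0.525.

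In CCl4 the median level was highest in the last group. The median share of the 8-week change was 0.426 after 1 week (quartiles 0.180 and 0.590) and 0.833 after 4 weeks (quartiles 0.682 and 0.923). A share of 0.5 was first reached after 1 week by 78 rows, after 4 weeks by 103 and after 8 weeks by 19. The highest level was at 8 weeks for 174 rows, at 4 weeks for 22 and at 1 week for 4. The level at 8 weeks entered the choice, so a highest level there is in part a product of it. The change from 4 to 8 weeks was not tested. Weeks of diet and of CCl4 are not the same scale, and no course was tested against the other.

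By group means, most of the fall in culture was present on d1. The median share of the d12 change was 0.807 on d1 (quartiles 0.497 and 1.02), 0.981 on d4 and 0.950 on d8. A share of 0.5 was first reached on d1 by 150 rows, on d4 by 40, on d8 by 8 and on d12 by 2. The lowest level came on d12 for 75 rows, on d4 for 52, on d8 for 41 and on d1 for 32. The level on d0 entered both the choice and the share, so an early fall is in part a product of the choice. The share was not computed for other rows. On d1, 74 rows had a level below 1 and 55 a mean count of 3 or less, which left little room to see a later fall. On d1 20 rows were above d0, 7 of them by 0.5 or more. Row 11535 was among these, with 41.0, 17.1 and 26.7 CPM on d0, 69.6, 71.5 and 78.0 on d1 and 13.6, 10.3 and 13.4 on d12.

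The rows were also split by whether they lost their level on d1 or later. The 150 rows that reached a share of 0.5 on d1 had median levels of 2.24 in chow-fed mice and 3.21 on d0, and of 1.04 on d1. The other 50 rows had medians of 2.44 in chow-fed mice, 3.93 on d0, 4.01 on d1 and 2.18 on d4. In WD their median rise was 2.99 and 2.80, and in CCl4 2.43 and 2.32. These sets were formed from the same group means, and the differences between them were not tested.

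The in vivo timing of a row in one model was compared with that in the other. Of the 101 rows that reached a share of 0.5 at 12 weeks of WD, 51 did so after 1 week of CCl4, 34 after 4 weeks and 16 after 8 weeks. Of the 97 rows that did so at 16 weeks, 26 did so after 1 week, 68 after 4 weeks and 3 after 8 weeks. The 51 rows that were early in both models had the highest median rises of these 6 sets, 4.84 in WD and 5.20 in CCl4. The 34 rows at 12 weeks and 4 weeks had medians of 2.99 and 2.87, the 26 rows at 16 weeks and 1 week 2.67 and 2.54, and the 68 rows at 16 weeks and 4 weeks 2.61 and 2.29. The WD and CCl4 values come from separate libraries with separate controls, but both rises were used to choose the rows.

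The 16 rows that were early in WD and last in CCl4 had a distinct course. Their median level in WD was 3.87 with chow, 8.38 at 12 weeks, 8.08 at 16 weeks and 7.89 at 24 weeks. In CCl4 it was 4.49 with vehicle, 4.19 after 1 week, 4.20 after 4 weeks and 5.90 after 8 weeks. Culture lowered it from 2.63 on d0 to 1.14 on d1, and each of the 16 rows reached a share of 0.5 on d1. Their group medians were thus high from the first diet group on, at or below that of vehicle in CCl4 until the last, and already below the in vivo controls on d0. This set was formed after its values were seen.

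Changes between groups that were not the ends of the 3 changes of the rule were tested with edgeR's quasi-likelihood test over all rows that passed the filter, and a row was called when its Benjamini-Hochberg adjusted p (FDR) did not exceed 0.05 and its log2CPM, averaged over both groups, exceeded 2. The groups compared entered the choice only through the level of 3 or more in any group, which 197 of the 200 rows also met in the 6 groups of the 3 changes and 3 rows met only elsewhere. They lie within the same time courses, so a row chosen for its rise by the last time point is also more likely to rise between earlier ones. The same holds for a fall in culture. From 12 to 16 weeks of WD, 122 of the chosen rows were higher and 0 were lower, among 193 above the log2CPM threshold, with a median log2FC of 1.63. Of all 12405 rows tested, 9.46% were called higher and 3.75% lower, and their median log2FC was -0.10. Of the 197 rows, 121 were higher and 0 lower. By DESeq2 132 of the chosen rows were higher and 0 lower, and at an unadjusted p under 0.05 edgeR also gave 0 lower rows. The log2FC of the 122 rows had a median of 2.3 and ranged from 0.687 to 4.22.

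That count rested on the libraries. Without C and D at 16 weeks, 26 of 181 chosen rows were called, all higher, with a median log2FC of 1.08, and 0.907% of all rows were called in either direction. The 26 were among the 122. This fit was added after C and D were seen to stand above A and B. With any single library of the compared groups left out, between 99 and 133 rows were called.

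From 1 to 4 weeks of CCl4, 111 of the chosen rows were higher and 3 were lower, among 180 above the threshold, with a median log2FC of 1.06. Of all 12217 rows tested, 22.8% were called higher and 23% lower, and the median log2FC was 0.01. Of the 197 rows, 110 were higher and 3 lower. Without replicate A of 4 weeks, 101 were higher and 5 lower, with a median log2FC of 0.89. The higher rows had log2FC values from 0.474 to 3.60, with a median of 1.56. Higher in both in vivo comparisons were 86 rows, which were 70.5% of the rows higher in WD and 77.5% of those higher in CCl4. Of the 178 chosen rows tested in both, these were 48.3%, and 23% were higher in neither, against 5.06% and 73.5% of all 11597 rows tested in both.

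**Figure D5:**
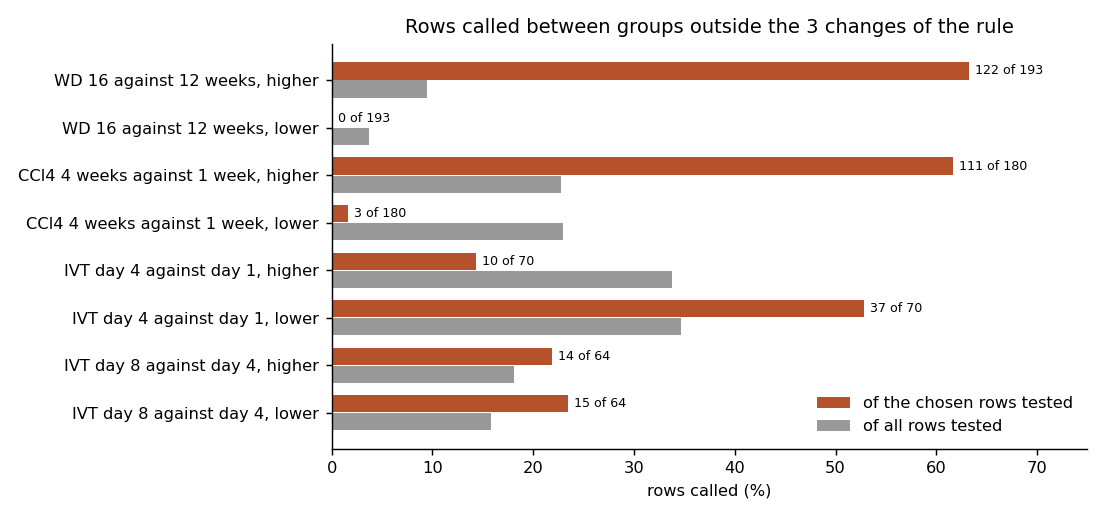
Percentage of rows called (x) among the chosen rows above the log2CPM threshold and among all rows tested, for 4 comparisons between groups outside the 3 changes of the rule, by direction (edgeR, FDR at most 0.05). Labels give the number of chosen rows called of those tested. Higher rows lead in both in vivo comparisons, with 122 of 193 and 111 of 180.

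The largest called changes in WD were those of rows 5166, 21434 and 17379. Row 5166 went from 0.331, 1.24, 0.170 and 1.5 CPM at 12 weeks to 2.49, 4.21, 27.8 and 25.8 at 16 weeks, with a log2FC of 4.22 ± 0.864 (SE, FDR 0.00569, edgeR). Row 21434 went from 3.14, 4.54, 3.39 and 2.50 to 20.6, 19.6, 70.2 and 54.0 (log2FC 3.56 ± 0.566, SE, FDR 0.00174). Row 17379 went from 5.62, 8.25, 4.07 and 6.66 to 17, 28.6, 110 and 131 (log2FC 3.51 ± 0.674, SE, FDR 0.00401). All 4 libraries at 16 weeks exceeded all 4 at 12 weeks in these rows, and C and D were the highest in each. In CCl4, row 17379 was at 6.35, 1.73 and 1.26 CPM after 8 weeks and at 0.218, 0.239, 1.48 and 0 with vehicle, and these groups overlapped.

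In CCl4 the largest rise between these groups was that of row 2387, from 0.924, 0.911 and 0.428 CPM after 1 week to 8.27, 20.7, 3.11 and 10.4 after 4 weeks (log2FC 3.60 ± 0.580, SE, FDR 0.000214, edgeR). Row 20074 went from 0.660, 0.911 and 1.28 to 12.4, 10.1, 6.63 and 13.7 (log2FC 3.37 ± 0.404, SE, FDR 2.24e-05). Row 16450, the last of the 200 by rank, went from 9.90, 5.47 and 15.2 to 168, 79.8, 74.6 and 87.9 (log2FC 3.21 ± 0.368, SE, FDR 1.73e-05). In each of these rows the 1-week and 4-week groups did not overlap. In WD, row 2387 was at 9.98 and 4.52 CPM in A and B at 24 weeks but at 0.633 and 0.468 in C and D, against 1.67, 0, 1.53 and 1.46 in chow-fed mice, so its rise there rested on A and B.

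The 3 rows that were lower after 4 weeks than after 1 week had been above vehicle after 1 week of CCl4. Row 7198 went from 36.6, 18.4, 4.85 and 9.37 CPM with vehicle to 74.8, 36.9 and 98.2 after 1 week and to 18.7, 22.6, 6.01 and 11.7 after 4 weeks (log2FC -2.39 ± 0.649, SE, FDR 0.00801, edgeR). After 8 weeks it was at 76.7, 22.4 and 8.54, which overlapped with vehicle, as did the 8-week values of row 10675 (2.06, 6.90 and 3.01, against 0.654, 1.43, 4.22 and 0). Row 10675 went from 9.77, 6.07 and 13 to 2.76, 1.54, 4.76 and 1.35 (log2FC -2.0 ± 0.637, SE, FDR 0.0188), and row 3698 from 128, 113 and 145 to 97.0, 85.5, 104 and 114 (log2FC -0.50 ± 0.137, SE, FDR 0.00873). In WD row 7198 was at 438, 419, 272 and 213 CPM at 12 weeks and stayed between 213 and 417 later. Its log2FC from 12 to 16 weeks was -0.01 ± 0.361 (SE, FDR 0.993).

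After d1, more of the tested rows were lower than higher on d4, and from d4 to d8 the calls were split between the directions. Of the 200, 130 were not above the log2CPM threshold on d1 and d4, 34 of which had not passed the count filter, so the test covers the rows that kept some expression. From d1 to d4, 37 of the 70 tested rows were lower and 10 were higher, with a median log2FC of -0.52 over the tested rows. With no log2CPM threshold, 58 were lower and 20 higher. Of all 11206 rows tested, 34.7% were called lower and 33.8% higher. Of the 50 rows that reached a share of 0.5 after d1, 31 were tested, with 26 lower and 0 higher. Of the 150 rows that reached it on d1, 39 were tested, with 11 lower and 10 higher. A fall by d12 was fixed by the choice, so a row still high on d1 was likely to be lower later. From d4 to d8, 15 of 64 tested rows were lower and 14 were higher, with a median log2FC of -0.03. With only these groups in the fit, 25 were lower and 20 higher. The background was 15.8% lower and 18.1% higher over 11434 rows. The 130 untested rows had a median level of 2.27 on d0 and 0.692 on d1.

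Several rows reversed within the culture. Of the rows lower on d4, 11 were higher again on d8 and 4 fell further, and 5 rows that were higher on d4 were lower on d8. Of the 62 chosen rows tested in both comparisons these were 17.7%, 6.45% and 8.06%, against 4.39%, 5.95% and 5.96% of all 11025 rows tested in both. Row 114 went from 35.0, 30.3 and 27.8 CPM on d1 to 3.40, 2.60 and 2.93 on d4 and 7.73, 6.16 and 5.95 on d8, with log2FC values of -3.35 ± 0.315 and 1.14 ± 0.408 (SE, FDR 7.86e-08 and 0.0416, edgeR). Row 1737, an abundant row with 300, 211 and 384 CPM on d0, went from 74.1, 74.8 and 70.9 on d1 to 161, 166 and 162 on d4 and back to 71.2, 71.9 and 75.2 on d8. It ended at 19.5, 19.1 and 17.6 on d12. In both rows the d4 libraries did not overlap with those of d1 or d8.

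Row 17808 had the largest called fall between d1 and d4, with a log2FC of -8.69 ± 0.512 (SE, FDR 1.97e-10, edgeR), fitted on 0, 1 and 2 reads in the d4 libraries and so dependent on the prior count. Row 10194 rose from 26.5, 29.7 and 24.4 CPM on d1 to 67.4, 73.8 and 66.1 on d4 (log2FC 1.38 ± 0.107, SE, FDR 7.04e-09) and ended at 42.0, 45.3 and 45.1 on d12, below its d0 values of 88.7, 75 and 99.3. The largest called rise from d4 to d8 was that of row 11787. It went from 4.63, 3.91 and 4.25 to 15.6, 10.8 and 15.6 CPM (log2FC 1.72 ± 0.175, SE, FDR 8.48e-07, edgeR). Row 22190, the most abundant of the named rows in WD with 1930, 1450, 1230 and 1000 CPM at 12 weeks, rose from 6.94, 5.50 and 5.87 on d4 to 15.8, 12.3 and 13.3 on d8 (log2FC 1.18 ± 0.327, SE, FDR 0.0108). Its chow libraries were at 141, 68.4, 63.6 and 97.3 and its d0 libraries at 18.0, 14.3 and 43.3, so its culture began below the mouse. Among the called rows, which lie above the log2CPM threshold, rows 11535, 21191 and 10526 fell most from d4 to d8, with log2FC values of -1.57 ± 0.232, -1.39 ± 0.154 and -1.32 ± 0.157 (SE, FDR 5.7e-05, 2.31e-06 and 5.4e-06).

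The chosen rows varied more between libraries than other rows did. The median biological coefficient of variation of edgeR was 0.418 in WD, 0.285 in CCl4 and 0.175 in IVT for the chosen rows that passed the filter, and 0.243, 0.191 and 0.0713 for all rows. The IVT values may be those of wells and not of mice, and the FDR values of the culture comparisons rest on the same spread. The chosen rows were lower than the others in the controls and in culture, and the part of depth in this spread was not tested.

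The limit of the choice ran through rows with nearly equal values. Just inside were row 3940 and row 16450, with smallest changes of 0.898 and 0.897, and just outside were row 21765 and row 22636, both with 0.897. Row 3940 began high, with 125, 127, 151 and 119 CPM in chow-fed mice and 185, 223 and 167 on d0, and ended at 61.8, 55.8 and 62.0 on d12. Row 16450 was at 0.601, 0.558 and 1.69 CPM on d0, which were 3, 3 and 6 reads, and at 0.138, 0 and 0 on d12, so its fall rested on few reads. At 24 weeks of WD it was at 71.7, 75.8, 143 and 116. Row 21765 and row 22636 lay at 26.2, 9.30 and 18.0 and at 34.6, 13.9 and 35.1 CPM on d0. On d12 they were at 5.82, 2.56 and 3.84 and at 15.9, 14.7 and 13 CPM, clear of the detection limit. In row 22636 replicate B of d0 lay within the range of the d12 libraries, so its fall rested on A and C.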

How the data were processed

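The authors aligned the reads with STAR to mm10, used HOMER to count reads over exons regardless of strand (up to 3 per position), and deposited the raw counts, not normalized, in 3 tables, 1 per experiment. All 45 value columns were mapped to samples by their titles. The members and lists were chosen with earlier results of these data known. The row names did not follow the counts (checked with 20 genes, all matched by symbol), so no row was named. The same line was joined across tables.

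Differential expression was computed from the counts with edgeR 4.0.16 in R 4.3.3 (TMM, filterByExpr, quasi-likelihood test, Benjamini-Hochberg), with 1 fit per experiment over all its groups and the seed at 1. The test was tested on simulated data. Rows were named by rule: the 8 highest by rank, the 3 highest by each change, the highest in each starting class, the 3 largest called in each direction of each comparison, and the rows beside the limit. Not every row given by this rule is described. Alternatives were DESeq2 1.42.0, other scaling, filters and pseudocounts, the replicate letter as a block, and leaving out libraries. Python 3.11.15 with pandas 2.3.3 made tables and figures. Intervals from a count of 3 cover counting error only, since reads can be copies of a fragment. The header of each table names the same source libraries, although the titles differ.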

Additional observations from a re-analysis of the deposited data

Results flagged for a closer look

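In groups of 4 libraries, 66 sets of values were examined for a library far from the others by Dixon's test, and 8 were flagged, where chance flags about 1 in 20 groups. The total count of WD 12 weeks replicate B was 2425443, against 5892116 to 6045174 in the others. Replicate A after 4 weeks of CCl4 was flagged for the share of its counts on the 200 rows, 2.27% against 1.34% to 1.49%, and for 3 rows, row 23901 at 71.1 CPM (others 25.7 to 29.7), row 22586 at 136 CPM (others 67.5 to 73.7) and row 9399 at 23.2 CPM (others 6.76 to 8.49). Row 17808 was at 139 CPM in WD 24 weeks replicate C and between 120 and 121 in the others, a small difference in a tight group. Row 21 was flagged in chow replicate A at 0.185 CPM and in vehicle replicate A at 0.218 CPM, each 1 read where the others had 0.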

How the results depend on the processing

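Of 103 alternatives, 96 left their value within the limit set for it, and no called row changed direction in any. The limit was a fixed fold for counts and the SD between single libraries for shares. Many alternatives left out 1 library, for which this limit was wide. With the level of 3 or more asked only of the 6 groups of the 3 changes, an alternative chosen after seeing the data, 197 of the rows were chosen again. A pseudocount of 5 moved the most descriptions: 132 of the 200 rows were chosen again, and the median shares became 0.421 at 12 weeks of WD, 0.367 at 1 week of CCl4 and 0.862 on d1 of culture. Without libraries C and D at 16 weeks of WD, 26 rows were called from 12 to 16 weeks. From d1 to d4, 78 rows were called (20 higher, 58 lower) with no log2CPM threshold, and from d4 to d8, 45 (20 higher, 25 lower) with only the compared groups fitted. The cause was not tested. With each library left out in turn, between 179 and 197 rows were chosen again, and the rows called were between 99 and 133 in WD, 94 and 117 in CCl4, 44 and 47 from d1 to d4 and 20 and 23 from d4 to d8. The median shares were then 0.475 to 0.525, 0.412 to 0.435 and 0.813 to 0.828. With the replicate letter as a block, 127, 115, 48 and 30 rows were called. Libraries of the same letter did not deviate together in every pair between the tested 12 and 16 weeks of WD. There r was between -0.369 and 0.224 over all rows. Over the 200 rows it was 0.419 for A, 0.081 for B, -0.304 for C and 0.587 for D. The letters were therefore not taken to pair samples there. At 16 and 24 weeks, which were not tested against each other, r for the same letter was between 0.370 and 0.747 over the 200 rows. Other pairs were not computed there. Depth limits the culture values most, where 73 rows had a mean count of 3 or less on d12.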
